A study of Bos taurus with 12 samples.

Results

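Both arms of bta-miR-151, their sequence relative bta-miR-28 and a set of miRNAs that are often used as references for circulating RNA (both arms of bta-miR-423, bta-miR-191 and bta-miR-186) were followed through 12 plasma libraries of cattle. These 7 mature miRNAs, of 783 bovine miRNAs in the table, were chosen by name. The choice was made with earlier values of these data known, including a lower miR-151-5p in SH than in SL, so the group differences below are descriptions of values that were already in view.

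Plasma extracellular vesicles (EVs), small membrane particles that cells release into blood, were the source of the RNA. The donors were 6 crossbred beef heifers, 3 of them high (H) and 3 low (L) ovarian responders to superstimulation, bled on Day 7 of a cycle without stimulation (U) and again on Day 7 after superstimulation (S). Superstimulation meant decreasing doses of follicle stimulating hormone over 4 days from Day 10 of the oestrous cycle, with a prostaglandin and artificial insemination. The 4 groups (UL, UH, SL and SH) held 3 libraries each, and a library number was taken to name the same heifer in the U and the S cycle, an assumption from the sample titles alone. The H and L heifers were picked from the ends of the response in a larger herd, so they do not stand for intermediate responders. EVs of plasma are a mixture from many cell types, and fewer EVs of a source cannot be told apart from less miRNA per EV.

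A miRNA hairpin is cut into 2 arms, 5p and 3p, of which 1 is usually loaded into Argonaute and kept while the other is degraded. Target choice depends mainly on the seed, bases 2 to 8 of the mature strand, so the 2 arms of a hairpin have different targets. The ratio of arms within a library does not depend on its depth or on its scaling. miR-151 is encoded within PTK2, the gene of focal adhesion kinase, and has been studied mainly in cell migration. miR-28 is encoded within LPP and is known from B cells. miR-423, miR-191 and miR-186 are expressed in most tissues, which is why they serve as references. In the RefSeq annotation of ARS-UCD2.0, which is not the build that the authors mapped to, the bovine gene MIR151 overlaps PTK2, MIR28 overlaps LPP, MIR423 overlaps NSRP1 and MIR186 overlaps ZRANB2. MIR191 overlaps the miRNA gene MIR191B and has MIR425 as its nearest other gene.

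The seeds decide which members can be read as one family, so the mature sequences of the deposited table follow, 5′ to 3′, with the seed in capitals.
bta-miR-151-3p: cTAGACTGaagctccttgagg
bta-miR-151-5p: tCGAGGAGctcacagtctagt
bta-miR-28: aAGGAGCTcacagtctattgag
bta-miR-423-5p: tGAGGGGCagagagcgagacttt
bta-miR-423-3p: aAGCTCGGtctgaggcccctcagt
bta-miR-191: cAACGGAAtcccaaaagcagctg
bta-miR-186: cAAAGAATtctccttttgggct

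The 7 seeds were all different. Of the 783 entries, only bta-miR-708 shared a seed with a member, that of miR-28. miR-151-5p and miR-28 nevertheless held a common run of 16 bases, shown here in capitals because the seed alone does not show it.
bta-miR-151-5p: tcgAGGAGCTCACAGTCTAgt
bta-miR-28: aAGGAGCTCACAGTCTAttgag

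The run covered positions 4 to 19 of miR-151-5p and started at position 2 of miR-28, so the same bases were the seed of miR-28 and lay 2 bases further in on miR-151-5p. No member's sequence was contained in that of another entry. The arms of each hairpin were complementary over an unbroken run of 8 bases, which for miR-151 lay at positions 13 to 20 of the 5p arm and at the first bases of the 3p arm.

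Libraries held between 21466 and 77433 reads of known miRNAs with a median of 41190, each read standing for 1 molecular index. The lowest and the highest library were both in SH (SH2 and SH3). Levels are given as normalized reads, that is reads divided by a TMM scaling factor and brought to the mean depth. SH3 stood apart in miR-486, a red blood cell miRNA, with 8394 normalized reads against at most 2738 in the other 11 libraries. It did not stand apart in miR-451 (43.8 in SH3, 45.6 in UL1) or miR-144 (0.61 in SH3, 7.44 in UL1). The summed red blood cell markers (miR-451, miR-486 and miR-144) ranged from 1200 to 2646 in UL, from 1131 to 2782 in UH, from 991.3 to 2281 in SL, but from 1774 to 8438 in SH, and at least 2 of the 3 had a read in every library. Most of each sum was miR-486. The 4 leukocyte markers (miR-150, miR-142-5p, miR-223 and miR-155) were all read in every library and summed to between 1651 and 3607. The endothelial and platelet markers (both arms of miR-126) summed to between 4096 and 7065 in UL, 4698 and 11988 in UH and 3555 and 6471 in SL. In SH they summed to 2263 in SH1, 7735 in SH2 and 1702 in SH3, so that SH1 and SH3 were the lowest of the 12 libraries and SH2 the second highest. The ratio of miR-451 to miR-23a, the haemolysis measure of the study, lay between 0.0854 in UH2 and 0.639 in SH1. The part of these markers in the results below was not tested, and values without SH3 or SH1 are given where they matter.

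miR-151-3p was the main product of its hairpin and 1 of the steadiest miRNAs in these EVs. It ranked 21st of 336 miRNAs with a read and made up 0.584 to 1.11% of the known miRNA reads. Its normalized reads were 261.4, 369.0 and 305.1 in UL, 459.3, 431.5 and 440.8 in UH, 412.6, 279.3 and 383.6 in SL, and for SH they were 306.2, 330.5 and 431.6. The UH libraries lay above all UL libraries and close to each other, and every other pair of groups in the 4 comparisons overlapped. Group means fell in the order UH (443.9 ± 14.2, SD, n = 3), SL (358.5 ± 70.1), SH (356.1 ± 66.5) and UL (311.8 ± 54.2). The log2 difference between UH and UL was 0.52 (SE 0.26, adjusted p = 0.930, limma), which did not pass.

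miR-151-5p, the minor arm, was lowest in the SH heifers. Its reads were 26, 60 and 38 in UL, 34, 65 and 60 in UH, 45, 38 and 32 in SL, and for SH they were 7, 15 and 47. As normalized reads these were 24.2, 54.7 and 37.9 in UL, 50.4, 46.7 and 45.5 in UH, 55.8, 37.8 and 49.9 in SL, and for SH they were 9.48, 30.4 and 28.6. The SH libraries lay below all SL and all UH libraries, while UL1 was lower than 2 of the 3 SH libraries. The group means were 47.8 ± 9.17 in SL, 47.5 ± 2.54 in UH, 38.9 ± 15.3 in UL and, lowest, 22.8 ± 11.6 in SH (SD, n = 3). The 7 reads of SH1 set much of the SH spread. The summed miR-126 arms had means of 3900 in SH, 5117 in SL and 7756 in UH, and were low in SH1 and SH3 but not in SH2. Their part in the lower miR-151-5p and in the arm ratio of SH was not tested.

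Between SH and SL, miR-151-5p differed by -1.17 on the log2 scale (SE 0.53, adjusted p = 0.667, limma) and passed the thresholds used here to call a miRNA, a log2 change of 1 or more in either direction together with an unadjusted P of 0.05 or less. The thresholds are those of the study's methods, where they were applied to edgeR. It passed by a small margin (unadjusted P = 0.0495, limma), and with SH1 left out the difference was -0.66 and no longer passed. Between SH and UH the difference was -1.18 (SE 0.57, adjusted p = 0.735, limma), just outside the thresholds (unadjusted P = 0.0525). With the library number as a replicate block this difference passed (adjusted p = 0.518, limma). Between libraries of the same number, S minus U gave -2.29, -0.60 and -0.65 for the H heifers and 1.17, -0.52 and 0.39 for the L heifers. All 3 H heifers and 1 of 3 L heifers were therefore lower after superstimulation. The difference of these changes, the cycle by response interaction, was -1.53 (SE 0.65, adjusted p = 0.847, limma) and passed the unadjusted thresholds. Without SH1 the interaction was -1.02 and did not pass.

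**Figure D1:**
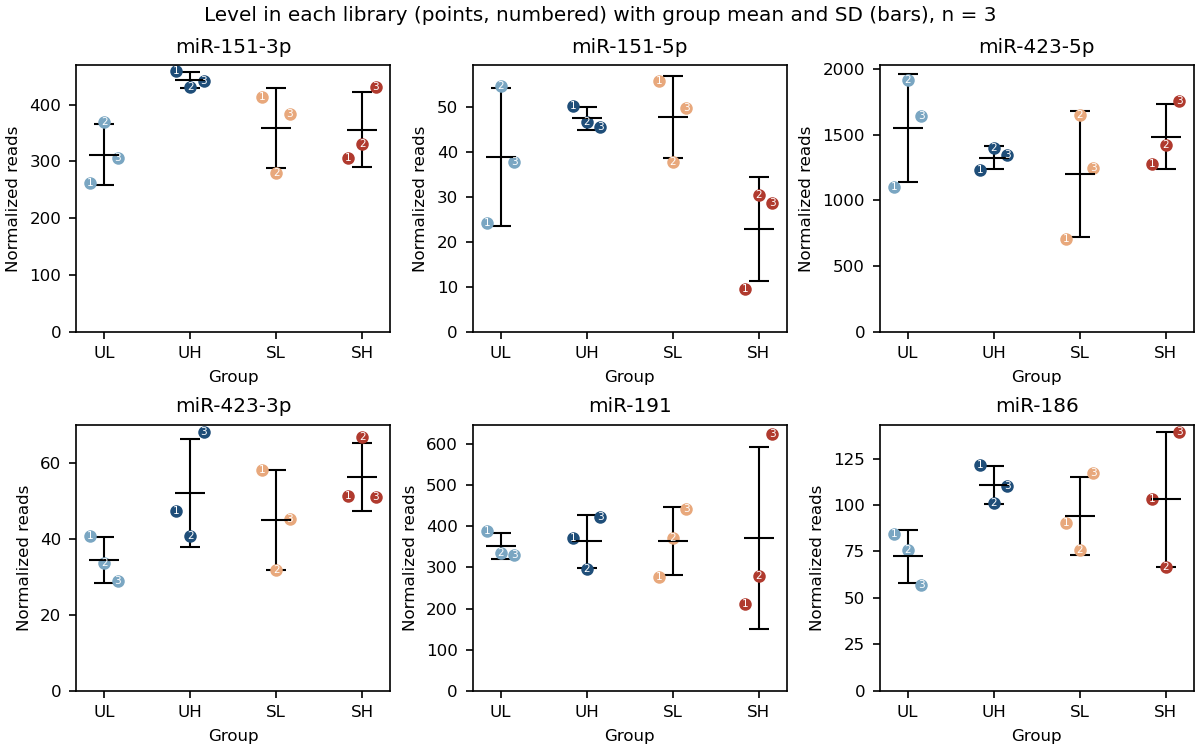
Normalized reads (linear axes from 0) of 6 miRNAs in the 12 libraries. Points are libraries, numbered by heifer, and bars are the group mean ± SD (n = 3). The SH points of miR-151-5p (9.48 to 30.4) lie below all UH and SL points, whereas the group means of miR-191 differ little and SH3 is its highest library.

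The 3p arm of miR-151 outnumbered the 5p arm in all 12 libraries, and most strongly in SH. The ratio of 3p to 5p reads was 10.8, 6.75 and 8.05 in UL, 9.12, 9.25 and 9.68 in UH, 7.40, 7.39 and 7.69 in SL, and for SH they were 32.3, 10.9 and 15.1. The 3 SH libraries had the highest ratios of all 12, with SH2 only just above UL1. Expressed as a share, miR-151-5p made up 3.00% of the reads of both arms in SH1 (95% exact binomial interval 1.22 to 6.09%), 8.43% in SH2 (4.79 to 13.5%) and 6.21% in SH3 (4.60 to 8.17%). In the other 9 libraries the share lay between 8.47% in UL1 (5.61 to 12.2%) and 12.9% in UL2 (9.99 to 16.3%). The interval of SH2 overlapped those of all 9, whereas the upper limit of SH1 was below the lower limit in 8 of them. These intervals cover counting error only.

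The libraries of UH and of SL were closely alike in this ratio. The SD of its log2 value (with 0.5 reads added to each arm) was 0.05 in UH and 0.03 in SL, less than the 0.22 and 0.25 that counting error gives, against 0.34 in UL and 0.77 in SH. Over all 12 libraries the SD was 0.60, or 2.08 times the counting error of 0.29, and without SH1 it was 0.33. From the U to the S cycle the log2 ratio changed by 1.75, 0.20 and 0.64 in the H heifers and by -0.54, 0.13 and -0.07 in the L heifers. The mean change of 0.35 ± 0.78 (SD, n = 6 heifers) was not distinguishable from no change (two-sided exact sign-flip permutation p = 0.312, higher in 4 of 6), and without heifer H1 (UH1 and SH1) it was 0.07. Without pairing by number, the exact permutation p of 6 against 6 libraries was 0.383. The smallest p that 6 heifers allow is 0.0312, and H against L with 3 heifers each cannot go below 0.1, so that contrast is described only.

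miR-28 was hardly present. It had 7 reads in all, of which 2 were in UL3, 1 in UH1, 3 in UH3 and 1 in SL1, and none in the other 8 libraries. The limit of 3 reads corresponded to 1.82 normalized reads in SH3 and 6.08 in SH2, and every library was at or below its limit. No difference between groups was therefore detectable at this depth. The only estimate of miR-28 printed, as a median of the members below, is not read as a result. miR-708, which shares the seed of miR-28, had 1 read each in UH1, UH3 and SH1. The 16-base run shared with miR-28 was thus represented in these EVs almost entirely by miR-151-5p, with 467 reads in all.

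**Figure D2:**
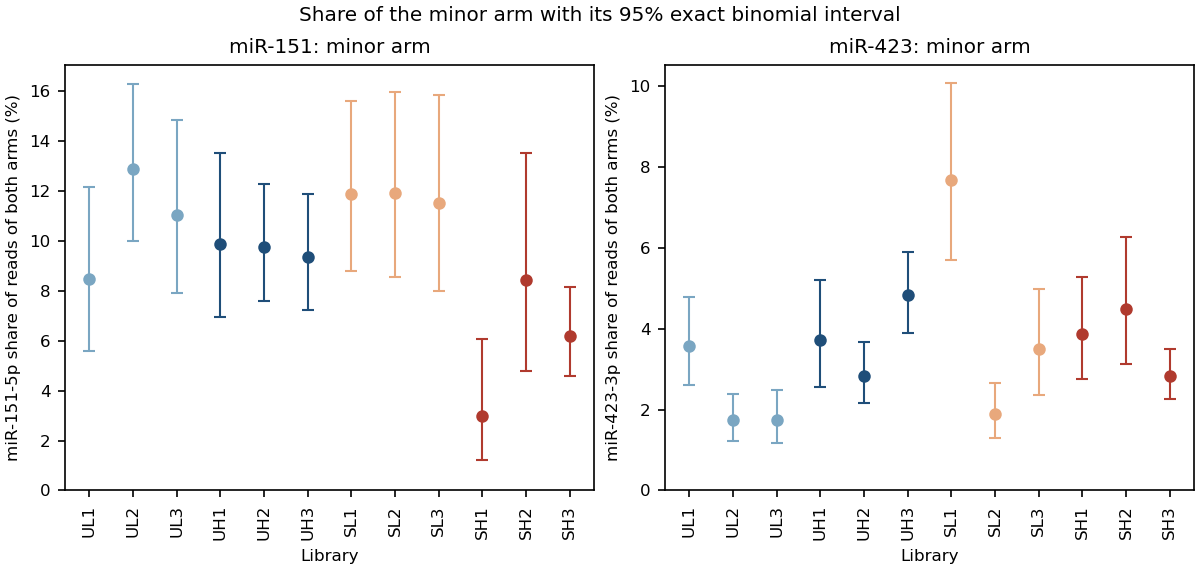
Share of the minor arm (%) among the reads of both arms, for miR-151 (5p, left) and miR-423 (3p, right), in each library, on linear axes from 0. Points are libraries coloured by group and bars are 95% exact binomial intervals. miR-151-5p is lowest in SH1 at 3.00%, and miR-423-3p is highest in SL1 at 7.67%.

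miR-423-5p was the most abundant member, 7th of 336, with 1.76 to 4.00% of the known miRNA reads. Its normalized reads were 1103, 1914 and 1640 in UL, 1227, 1401 and 1345 in UH, 701.4, 1652 and 1249 in SL, and for SH they were 1276, 1421 and 1756. No groups were separated, and the range within SL alone covered most of the range of all libraries. Group means lay between 1201 ± 477.2 in SL and 1552 ± 412.3 in UL (SD, n = 3), with 1485 ± 246.1 in SH and 1324 ± 89.2 in UH. Its log2 differences in the 4 comparisons ran from -0.42 for SL vs UL to 0.38 for SH vs SL, and none passed.

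miR-423-3p, the minor arm, had 29 to 90 reads per library. Normalized reads were 40.9, 33.7 and 28.9 in UL, 47.4, 40.9 and 68.3 in UH, 58.2, 31.8 and 45.2 in SL, and for SH they were 51.5, 66.9 and 51.1. The SH libraries were all above the UL libraries, groups that differ in both cycle and response, while neighbouring groups overlapped. SH and UL had the highest and the lowest mean, and SH against UL was not among the comparisons made. The share of all miRNAs without overlap between SH and UL was not counted, so this separation has no background to be read against. Means were 56.5 ± 9.03 in SH, 52.2 ± 14.3 in UH, 45.1 ± 13.2 in SL and 34.5 ± 6.05 in UL (SD, n = 3). The largest difference of miR-423-3p in the comparisons made, 0.56 for UH vs UL (SE 0.36, adjusted p = 0.930, limma), did not pass.

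The arm ratio of miR-423 varied more than that of miR-151 and did not follow the groups. The ratio of 5p to 3p reads was 27.0, 56.8 and 56.7 in UL, 25.9, 34.2 and 19.7 in UH, 12.04, 51.9 and 27.6 in SL, and for SH they were 24.8, 21.2 and 34.4. Ratios above 50 occurred in UL2, UL3 and SL2 and the lowest in SL1, all of them L heifers. In SL1 the 3p arm made up 7.67% of the reads of both arms (95% exact binomial interval 5.69 to 10.1%) and in UL2 1.73% (1.22 to 2.38%), which is beyond counting error. Over the 12 libraries the log2 ratio had an SD of 0.67, or 2.89 times the counting error of 0.23. Its change from U to S was -0.06, -0.70 and 0.80 in the H heifers and -1.16, -0.13 and -1.04 in the L heifers, with a mean of -0.38 ± 0.74 (SD, n = 6 heifers, two-sided exact sign-flip permutation p = 0.219, higher in 1 of 6). This mean was not distinguishable from no change, and it was -0.22 without heifer L1 and -0.62 without heifer H3. Without pairing by number the exact permutation p was 0.333.

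Among the 5 hairpins with both arms named in the table and a mean of at least 10 reads for each arm, miR-423 and miR-151 held the 2nd and 4th place by the SD of the log2 arm ratio over counting error. These ratios of SD to counting error were 3.17 for miR-126, 2.89 for miR-423, 2.64 for miR-142, 2.08 for miR-151 and 0.81 for miR-199a. SH1, the library with the least miR-151-5p, also had the lowest 5p to 3p ratio of miR-126, but not of the other 3 hairpins. The spread of the arm ratio was thus above counting error for 4 of the 5.

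miR-191, which lies beside MIR425, had almost the same mean in all groups and a wide spread within SH. Its normalized reads were 387.9, 336.2 and 330.0 in UL, 371.9, 295.8 and 421.9 in UH, 277.6, 371.8 and 441.3 in SL, and for SH they were 210.0, 279.8 and 623.7. SH held both the lowest and the highest library. The means were 351.4 ± 31.8 in UL, 363.2 ± 63.5 in UH, 363.6 ± 82.2 in SL, with the highest, 371.2 ± 221.5, in SH (SD, n = 3). The highest mean was 1.06 times the lowest. Log2 differences in the 4 comparisons lay between -0.11 and 0.04. The sign changed with the setting in each of the 4, and in SH vs SL it went from -0.56 without SH3 to 0.23 without SH1. The ratio of miR-191 to its neighbour miR-425-5p ranged from 1.48 in SH1 to 3.90 in SH3.

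miR-186 was the least abundant of the main-arm references, 46th of 336. Its normalized reads were 84.6, 75.6 and 56.8 in UL, 121.5, 101.2 and 110.0 in UH, 90.5, 75.5 and 117.0 in SL, and for SH they were 103.0, 66.9 and 139.2. The UH libraries lay above all UL libraries, as they did for miR-151-3p, and the other comparisons overlapped. The means were 110.9 ± 10.2 in UH, 103.0 ± 36.1 in SH, 94.3 ± 21.0 in SL and 72.4 ± 14.2 in UL (SD, n = 3). The log2 difference between UH and UL was 0.62 (SE 0.30, adjusted p = 0.930, limma), the largest of any tested member in that comparison, and did not pass.

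Counts of members are read against the share of all miRNAs tested, and overlap was judged on normalized reads. In UH vs UL, 0 of 7 members passed the unadjusted thresholds, where 6 of 227 miRNAs (2.64%) did, and 2 of 7 did not overlap between the groups (miR-151-3p and miR-186), where 7.49% of all did not. In SH vs SL, 1 of 6 passed (miR-151-5p) against 5.47% of 201, and the same member alone did not overlap, against 8.96%. In SH vs UH, 0 of 7 passed against 5.66% of 212, and 1 of 7 did not overlap (miR-151-5p) against 7.55%. In SL vs UL, 0 of 6 passed against 2.34% of 214 (5 miRNAs, and 3 with the replicate block), and 0 of 6 were without overlap against 7.94%. In the interaction, 1 of 7 passed (miR-151-5p) against 5.04% of 238. miR-28 was tested only in UH vs UL, SH vs UH and the interaction, and it entered each through its reads in UH1 (1) and UH3 (3) alone. It cannot be compared at this depth, so only 6 of the 7 members in those counts could show a difference. With adjustment over all miRNAs tested, 0 miRNAs passed in these 5 fits (limma), and at an unadjusted P of at most 0.05 there were 6, 11, 12, 9 and 12. Other settings did give adjusted p-values below 0.05 for miRNAs that are not members. The smallest in UH vs UL was 0.000216 with no filter and 0.0116 with the replicate block (limma). In SH vs UH it was 0.00357 with no filter, 0.0173 without UH1 and 8.25e-07 without SH2 (limma). Over all settings the lowest adjusted p of any member was 0.223 (limma), that of miR-151-5p in SH vs SL.

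The median log2 difference of the members tested was 0.48 in UH vs UL, where that of all miRNAs tested was 0.04. It was 0.04 against -0.08 in SH vs SL, -0.16 against -0.14 in SH vs UH and 0.27 against -0.07 in SL vs UL. The 0.48 of UH vs UL was the estimate of miR-28 itself, which cannot be compared at this depth. The other members there ran from -0.19 (miR-423-5p) to 0.62 (miR-186). miR-28 also entered the median of SH vs UH. SH vs SL and SH vs UH share the SH libraries, and UH vs UL and SL vs UL share the UL libraries.

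**Figure D3:**
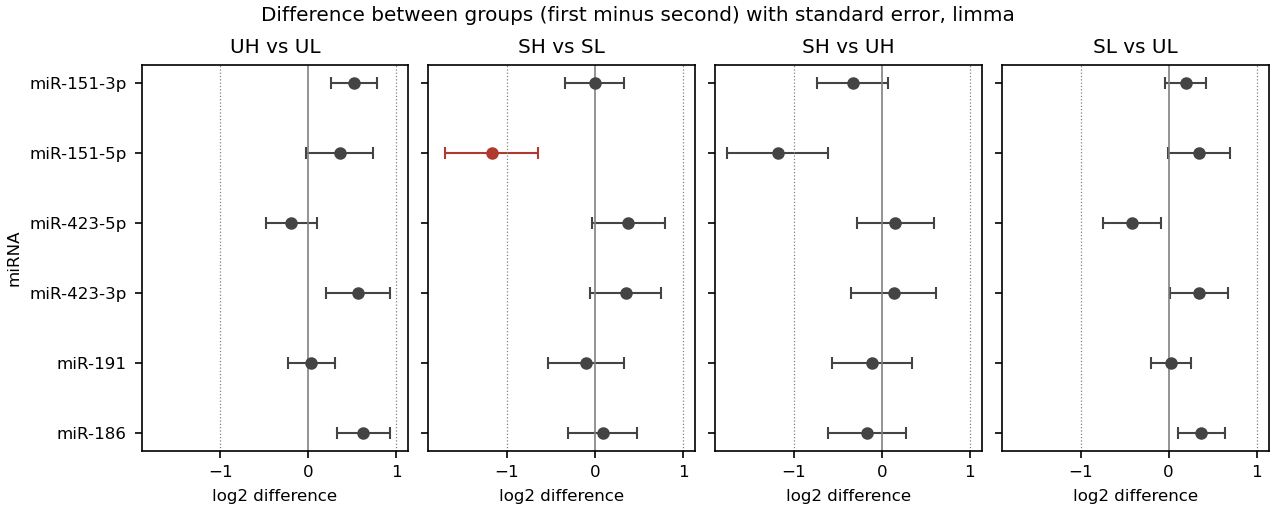
Log2 difference of normalized reads (x axis, first group minus second) for 6 miRNAs in the 4 comparisons, as the limma estimate ± SE. Dotted lines mark a log2 difference of 1 in either direction and red marks the point that passed the unadjusted thresholds, miR-151-5p in SH vs SL at -1.17.

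The stability of the reference miRNAs was described by the SD of log2(normalized reads + 1) over the 12 libraries and ranked among the 60 miRNAs whose mean was 50 reads or more. The median SD of the 60 was 0.47, with 0.22 for let-7d as the lowest and 1.58 for miR-143 as the highest. miR-151-3p had an SD of 0.28 and ranked 5th, with 1.76-fold between its highest and lowest library. miR-423-5p (0.38, 19th, 2.73-fold), miR-186 (0.38, 20th, 2.45-fold) and miR-191 (0.40, 24th, 2.97-fold) lay close together on the steadier side of the median. Counting error made up little of these values, from 0.04 for miR-423-5p to 0.16 for miR-186.

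The 2 minor arms had too few reads to be ranked. miR-423-3p had an SD of 0.39, of which counting error gives 0.23, and miR-151-5p had 0.69 against 0.28, with 5.88-fold between SL1 and SH1. Without SH1 the SD of miR-151-5p was 0.40, and without SL1 that of miR-423-5p was 0.25. For miR-151-5p the spread of the group means was part of this, since the SD within groups was lower at 0.55. For miR-191 the reverse held, with 0.46 within groups and group means on the log2 scale only 0.11 apart.

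The order among references depended on the library SH3 and on the scaling. Without SH3, miR-191 moved from 24th to 15th and miR-151-3p from 5th to 10th, and miR-26a moved from 9th to 1st. On the deposited scale, relative to mapped reads, every ranked member was less steady, with miR-151-3p at 19th, miR-423-5p at 25th, miR-186 at 29th and miR-191 at 33rd. let-7a-5p, a further reference, was 2nd with TMM and 8th on the deposited scale.

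**Figure D4:**
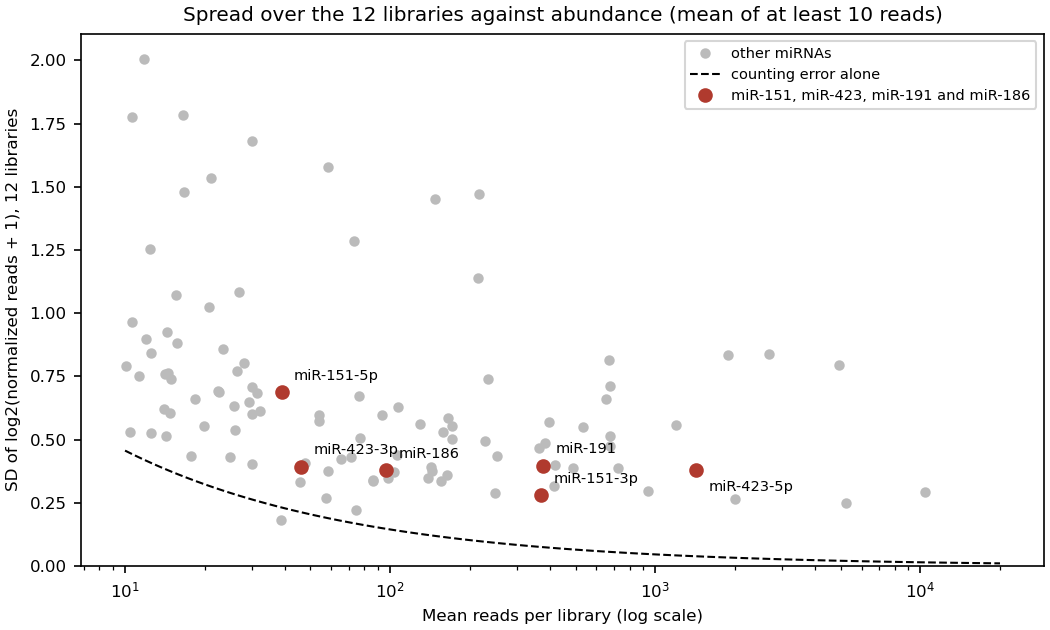
SD of log2(normalized reads + 1) over the 12 libraries (y axis) against the mean reads per library (x axis, log scale) for all miRNAs averaging 10 reads or more. Red points are members, grey points all others, and the dashed line is the SD that counting error alone would give at the mean number of reads. miR-151-3p (0.28) lies below the other members and miR-151-5p (0.69) above them.

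Pairwise variation, the mean SD of the log2 ratio of a miRNA to each other reference, needs no scaling because depth cancels. It was calculated among 15 references with at least 10 reads in every library. miR-151-5p and miR-484 were left out, with as few as 7 and 2 reads in a library. miR-151-3p had the lowest value of the 15 (0.44), followed by miR-191 (0.47), with miR-186 8th (0.50), miR-423-5p 9th (0.50) and miR-423-3p 15th (0.56). Without SH3, miR-26a (0.41) and miR-191 (0.41) came before miR-151-3p (0.42), and miR-423-3p stayed last (0.56). The values of the other 10 references in the 12 libraries lay between those of miR-191 and miR-423-3p, so the whole range was narrow.

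**Figure D5:**
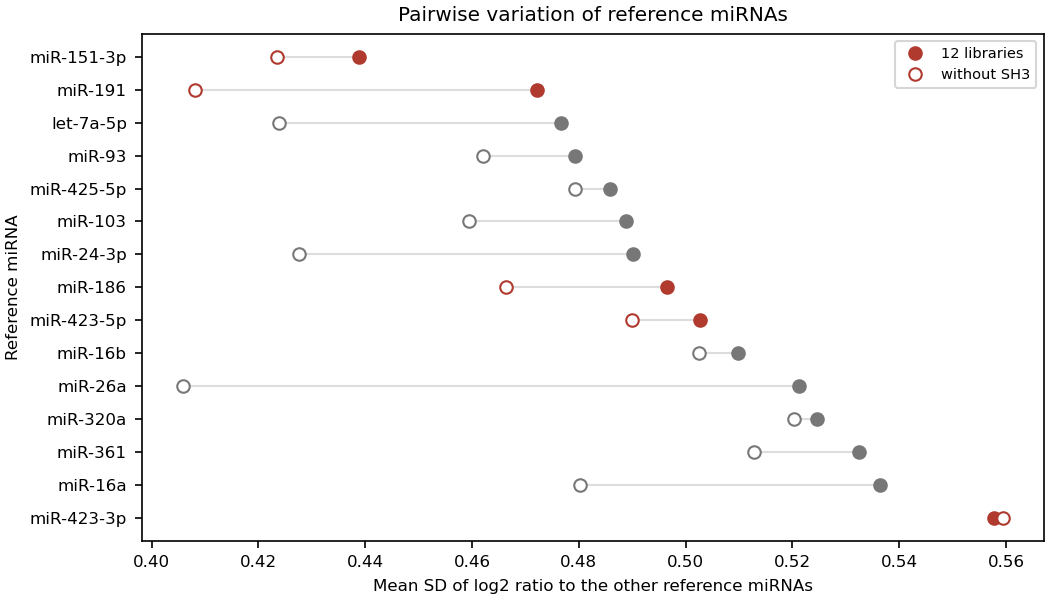
Pairwise variation (x axis, mean SD of the log2 ratio to the other 14 references; the axis does not start at 0) of 15 reference miRNAs. Filled points are all 12 libraries, open points 11 libraries without SH3, and red marks members. miR-151-3p is lowest over 12 libraries at 0.44 and miR-423-3p highest at 0.56.

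Pairs of members differed in how well they tracked each other. The ratio of miR-151-3p to miR-186 was the steadiest, with an SD of 0.29 on the log2 scale and 1.80-fold between SH1 and UL3. The ratio of miR-423-5p to miR-186 was the least steady among the main arms, with 0.58 and 3.71-fold between SL1 and UL3. The widest of all ratios, that of miR-151-5p to miR-423-5p, covered 10.1-fold. A pair of steady references was therefore not always steady as a ratio.

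The choice of reference moved the size of the differences. Between UH and UL, miR-423-5p differed by -0.19 and miR-186 by 0.62, so that changing from 1 to the other as the only reference shifts every log2 difference by 0.82. The corresponding span among the references miR-151-3p, miR-423-5p, miR-423-3p, miR-191 and miR-186 was 0.48 in SH vs SL, 0.49 in SH vs UH and 0.79 in SL vs UL. For miR-151-5p in SH vs SL the log2 difference was -1.17 relative to miR-151-3p, -1.55 relative to miR-423-5p, -1.52 relative to miR-423-3p, -1.07 relative to miR-191 and -1.26 relative to miR-186. It was lower in SH under all 5, and the groups did not overlap under the first 3 but did relative to miR-191 and miR-186. Relative to the same 5 references, its difference between UH and UL ran from -0.27 to 0.55, with both signs.

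The miRNAs most like each member over the 12 libraries were taken by Pearson's r of log2 values among 107 miRNAs averaging 10 reads or more, as a description of libraries that share depth and heifers. miR-151-3p was most like miR-186 (r = 0.65), miR-3431 (0.59) and its own 5p arm (0.53). miR-151-5p was most like miR-30d (0.73), miR-375 (0.71) and miR-103 (0.70), itself a reference. miR-423-5p was most like miR-30f (0.74), miR-6529 (0.68) and miR-148b (0.63), and miR-423-3p like miR-223 (0.65), miR-196a (0.60) and miR-196b (0.59). The arms of miR-423 were thus not among each other's 3 nearest, unlike 1 arm of miR-151. miR-191 was most like miR-128 (0.81), miR-93 (0.79) and miR-25 (0.76), and miR-186 like miR-223 (0.77), miR-151-3p (0.65) and miR-143 (0.64).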

How the data were processed

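Total RNA of plasma EVs was made into small RNA libraries with unique molecular indices. Per the study's methods and the submitters' processing notes, the authors collapsed reads by index with Cutadapt, mapped them with Bowtie2 2.2.2 to UMD3.1, annotated perfect matches against miRBase, and used edgeR with TMM. The deposited values are a score that the authors derived from read counts, tags relative to mapped reads (TPM) cut to whole numbers. All 12 value columns were used and 0 were left unused.

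Whole reads were recovered here from the step that 1 read makes in each library. TMM factors were calculated over the 12 libraries, and limma 3.58.1 (R 4.3.3; lmFit, eBayes with a trend, two-sided) was fitted to log2(normalized reads + 1) of the 2 groups compared, or of all 4 for the interaction. A miRNA entered when 2 of the 3 libraries of either group had 1 read or more, and Benjamini-Hochberg adjustment was over all of them. Adding 1 before taking log2 understates changes of low miRNAs. The fits were tested on simulated data. Arm ratios were taken from reads of the same library with 95% exact binomial intervals, and the U to S change over heifers was tested by exact sign flips. Intervals and the 3-read limit cover counting error only. Tables and plots used Python 3.11.15 with pandas 2.3.3, numpy 2.4.6, matplotlib 3.10.9 and scipy 1.17.1.

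The members, the reference and marker lists and the tests were chosen with earlier results of these data known. The text names the 7 members, the listed references, miR-708, miR-425 and, for each member averaging 10 reads or more, the 3 most correlated miRNAs. The 5 hairpins with both arms, and let-7d and miR-143 as the ends of the range of spread, were named after their values were seen.

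Every heifer gave a sample in each cycle, and the shared number in the library names was taken as the heifer. Deviations from the group means over 238 miRNAs correlated at 0.05, 0.21 and 0.13 between the U and S libraries of the H heifers and at 0.10, 0.06 and -0.05 for the L heifers. Since 4 of these 6 were at most 0.1, the correlations themselves do not show the pairing. The fit with the library number as a replicate block was an alternative. In H against L comparisons the number pairs different heifers. Others were median-of-ratios factors, library size alone, the deposited scale, no filter, a minimum mean of 10 reads, a fit over all 4 groups, 2 reads as the pseudocount, and leaving out each library.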

Additional observations from a re-analysis of the deposited data

Results flagged for a closer look

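The change of miR-151-5p from the unstimulated to the superstimulated cycle differed between H and L heifers by -1.53 on the log2 scale (limma, unadjusted P = 0.0289, adjusted p = 0.847 over 238 miRNAs). miR-151-5p was lower after superstimulation in 3 of 3 H heifers and in 1 of 3 L heifers. The interaction contains the SH to SL difference, which was known when the members were chosen. Without SH1 the interaction was -1.02 and did not pass. Of the 238 miRNAs, 5.04% passed the unadjusted thresholds in this fit, which did not pair libraries by number.

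miR-423-5p changed with opposite signs in the 2 response classes, though the changes of H1 and H2 were near its counting error of 0.04 per library. From U to S the log2 change was 0.06, 0.02 and 0.38 in the H heifers and -0.65, -0.21 and -0.39 in the L heifers. The difference of 0.57 did not pass (SE 0.50, adjusted p = 0.847, limma). With library size alone as the scaling the change of H1 was -0.17, and on the deposited scale that of H2 was -0.82, so the split did not hold under these. Such a split was searched for in all 7 members, and the share of all miRNAs that have one was not counted.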

How the results depend on the processing

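Counts over all miRNAs moved by more than 1.5 times under several settings. In UH vs UL (6 called) there were 10 without the filter and 1 with a mean of at least 10 reads, and 5 to 10 on leaving out a library. In SH vs SL (11) there were 7 on the deposited scale, 4 with a mean of at least 10 reads, 18 with all 4 groups in the fit, and 8 to 34, the 34 without SH2. In SH vs UH (12) there were 7 on the deposited scale, 6 with a mean of at least 10 reads, and 6 (without UH2 or SH1) to 24 (without SH2). In SL vs UL (5) there were 0 with a mean of at least 10 reads, 3 with a pseudocount of 2 reads, 10 with all 4 groups, 3 with the replicate block, and 7 to 15, the 15 without SL2. For the interaction (12) there were 4 with a mean of at least 10 reads, and 7 (without UL1) to 21 (without SH2). The causes were not tested.

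miR-151-5p was lower in SH than in SL under all 14 alternatives and passed in 8 (adjusted p from 0.223 to 0.847, limma). Most of these could not have changed the direction. The 2 changes of filter, the fit over all 4 groups and the replicate block left the estimate at -1.17. Leaving out a library cannot reverse groups that do not overlap in normalized reads. miR-151-5p lost its call with median-of-ratios factors (-1.15), on the deposited scale (-1.02) and without SL1 (-1.06), SL2 (-1.33), SL3 (-1.14) or SH1 (-0.66), of which only the last was much smaller than the -1.17 of all libraries. In SH vs UH it passed in 6 of 14 alternatives, and the interaction passed in 13 of 19. The replicate block changed no other member's call. Of 488 member differences recomputed, 470 kept their side of the thresholds and, where called, their direction. With 7 to 65 reads of miR-151-5p and 29 to 90 of miR-423-3p in a library, counting limits these minor arms more than the other members, and miR-28 cannot be compared at this depth.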

Other observations

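With TMM scaling, the U libraries of the H heifers were close to each other in several members at once. The SD within UH was 14.2 normalized reads for miR-151-3p, 2.54 for miR-151-5p, 89.2 for miR-423-5p and 10.2 for miR-186, in each case the smallest of the 4 groups, whereas for miR-423-3p and miR-191 another group had a smaller SD. On the deposited scale, UH did not have the smallest SD for miR-151-3p, miR-151-5p, miR-423-5p or miR-186. There the SD of miR-151-3p was 628.9 in UH and 237.5 in UL, and that of miR-186 was 126.2 in UH and 72.1 in SL. The difference in spread between groups was not tested, and how many other miRNAs had their smallest SD in UH was not counted.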
